A study of Homo sapiens with 12 samples.

Results

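The transcripts described are those of cytosolic ribosomal proteins in RKO, a human colon cancer line, after 24 hours at an arginine concentration of 400 uM (called fed) or 12.5 uM (called starved). The members were chosen by identity, as 49 transcripts of named ribosomal protein genes. Of these, 41 were in the tables analysed here, 28 of the large subunit and 13 of the small subunit, among 19686 transcripts with RNA counts and 19849 with footprint counts. RPL21, RPL31, RPLP0, RPS16, RPS20, RPS24, RPS29 and RPSA were not analysed here, nor were ribosomal proteins outside the list or other translation factors. The main ones described below are RPLP1 (ENST00000260379), RPLP2 (ENST00000321153), RPL4 (ENST00000307961), RPL5 (ENST00000370321), RPL9 (ENST00000295955), RPL15 (ENST00000307839), RPL37 (ENST00000274242), RPL37A (ENST00000491306), RPL39 (ENST00000361575), RPS6 (ENST00000380394), RPS12 (ENST00000230050), RPS18 (ENST00000439602) and RPS27A (ENST00000272317). Every group was wild-type RKO, plated in complete medium and then moved to arginine-free DMEM with dialyzed serum, to which one of the 2 arginine concentrations was added. RNA-seq and ribosome profiling, which sequences the fragments that ribosomes protect (footprints), gave 3 libraries for each treatment and assay, 12 in all. Whether the 3 libraries of a group are separate cultures is not in the labels, and the p-values therefore reflect variation among libraries that could be technical only. Library totals ran from 4670881 to 7967215 counts for RNA and from 2063952 to 4364383 for footprints.

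A ribosome is built from a large and a small subunit, and nearly every ribosomal protein is present once in each ribosome, so cells make them in matched amounts. Their mRNAs carry a tract of pyrimidines at the very start, the TOP motif (terminal oligopyrimidine tract), through which the kinase complex mTORC1 controls their translation. Loss of mTORC1 activity, which amino acids including arginine support, is known to move TOP mRNAs off ribosomes. Most ribosomal proteins are basic and rich in arginine and lysine, while the stalk proteins RPLP1 and RPLP2 are acidic. A footprint count rises when more ribosomes start on a transcript and also when ribosomes move along it more slowly.

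Because the TOP motif lies at the start of the mRNA, that stretch is shown here for 9 members on which the results below turn. Each line gives 30 bases of RefSeq sequence (GRCh38.p14) on the transcript strand, 10 before the annotated start and 20 from it on, with the longest unbroken run of C or T in capitals. RPLP1 lies at chr15:69452808-69452837 (+), RPLP2 at chr11:809957-809986 (+), RPL4 at chr15:66504836-66504865 (−), RPL9 at chr4:39458903-39458932 (−), RPL37A at chr2:216498834-216498863 (+), RPL39 at chrX:119791611-119791640 (−), RPS6 at chr9:19380217-19380246 (−), RPS12 at chr6:132814559-132814588 (+) and RPS18 at chr6:33272065-33272094 (+).
RPLP1: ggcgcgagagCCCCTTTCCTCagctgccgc
RPLP2: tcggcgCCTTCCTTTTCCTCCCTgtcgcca
RPL4: cgggagtggtaagcaCTTCCTTTTCCTgtg
RPL9: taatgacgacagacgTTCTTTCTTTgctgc
RPL37A: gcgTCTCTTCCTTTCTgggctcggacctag
RPL39: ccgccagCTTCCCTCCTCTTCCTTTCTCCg
RPS6: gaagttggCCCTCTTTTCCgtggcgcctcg
RPS12: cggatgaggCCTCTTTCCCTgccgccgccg
RPS18: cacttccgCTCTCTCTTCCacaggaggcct

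The pyrimidine run lay across the annotated start or began shortly downstream of it in each of these 9 genes. It was 10 bases long in RPL9 and 22 in RPL39 and lay between those lengths in the other 7. The stalk genes RPLP1 and RPLP2, whose footprints fell, and RPS18 and RPS12, whose footprints rose, all had one. Whether the run bears on the footprint change was not tested. Of the 41 members, 30 matched the promoter table by symbol. A run of 8 or more pyrimidines lay within 30 bases of an annotated start in 25 of these 30 (83.3%), against 27.9% of the 27305 genes in the table, and the median longest run was 12 bases against 6. RPL12, with 6 bases, RPS3A, with 7, and RPL3, RPL6 and RPS4X, each with 5, had no run of that length in the window. The letters CTTTC or CTTTTC, all pyrimidines, were chosen after the member sequences had been seen. They were on the transcript strand of 24 of the 30 members (80.0%) and of 11.8% of all genes. On the opposite strand they were in 2 of the 30 (6.67%) and in 10.9% of all genes. A match describes the letters in the window and is not a mapped start or a tested site.

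All 41 members belonged to the fifth of transcripts with the most RNA, and together they took a smaller share of RNA and a larger share of footprints in low arginine. Their share of all RNA counts was 4.94%, 4.63% and 4.20% in the 3 fed libraries (replicates 1, 2 and 3, the order kept throughout) and 3.83%, 4.02% and 3.74% in the 3 starved ones. The share of all footprint counts was 4.50%, 4.40% and 4.12% in the fed and 6.34%, 6.37% and 6.49% in the starved libraries. In each assay the treatments did not overlap, with means of 4.59 ± 0.373% and 3.86 ± 0.143% for RNA and of 4.34 ± 0.202% and 6.40 ± 0.0761% for footprints (SD, n = 3).

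**Figure D1:**
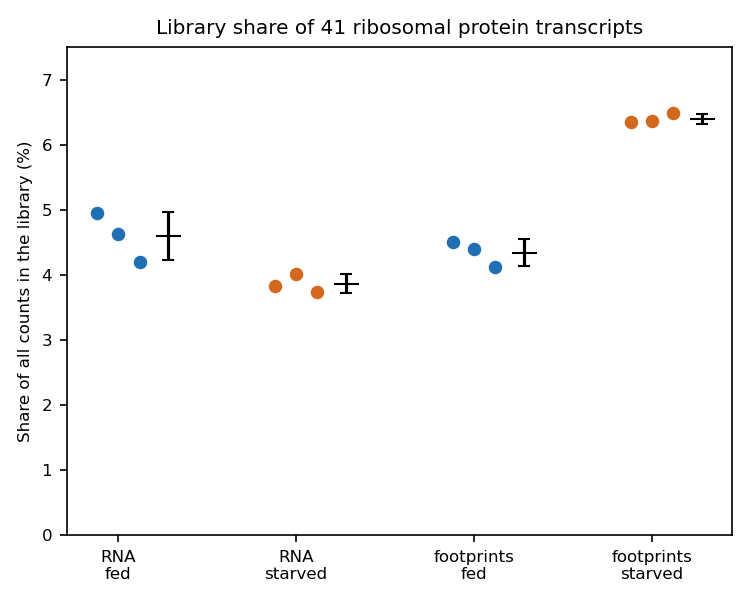
Share of all counts of each library (percent, y axis) that fell on the 41 ribosomal protein transcripts, by assay and treatment; points are libraries and bars the mean ± SD of 3. Starved footprint libraries lie between 6.34% and 6.49%, above all fed footprint libraries, while starved RNA libraries lie below all fed RNA libraries.

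Low arginine lowered the RNA of some ribosomal proteins and raised that of others. With edgeR's quasi-likelihood test and an adjusted p under 0.05 over all transcripts, 20 members had less and 9 had more RNA in starved cells, and 12 did not pass. Over all 11572 transcripts tested, 34.1% were called lower and 33.8% higher (67.9% in all), and in the fifth with the most RNA 27.8% and 50.7% (78.4% in all). The 29 of 41 members called lay between those shares. The median log2 fold change of the members, starved over fed, was −0.10, against −0.01 over all transcripts and 0.16 in the fifth. Scaling by library totals in place of TMM factors shifted the median of all transcripts by −0.11, to −0.12, and that of the members to −0.21. Relative to all transcripts the members stood at −0.09 with TMM factors and −0.08 with library totals. After removal of a trend with abundance, 27 members were called lower and 5 higher. The median was then −0.23 for the members and 0.00 over all transcripts. Levels below are counts per 1000000 of the library total (CPM), and fold changes use TMM factors, so the RNA fold change is slightly higher than the quotient of the CPM means. Because the lysates are bulk, a change in every cell and a larger change in some cells cannot be told apart.

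RNA dropped most for RPL4, a large-subunit protein with a long loop in the exit tunnel of the nascent chain. RPL4 RNA stood at 1729, 1586 and 1543 CPM in the fed and at 705, 799 and 730 CPM in the starved libraries. The starved libraries all lay below the fed, a 2.01-fold lower level (log2 fold change −1.01, SE 0.08, adjusted p = 1.58e-18). It was the only member past 2-fold in RNA.

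RPS18, a protein of the head of the small subunit, followed. Its RNA was 2376, 2204 and 2028 CPM in the fed and 1110, 1182 and 1208 CPM in the starved libraries, 1.75-fold lower with no overlap (log2 fold change −0.80, SE 0.08, adjusted p = 9.32e-14). RPL15, a core protein of the large subunit, gave 1149, 1045 and 994 CPM in the fed and 592, 566 and 609 CPM in the starved libraries. Its RNA was 1.67-fold lower (log2 fold change −0.74, SE 0.07, adjusted p = 1.57e-13), again without overlap. The 20 members with lower RNA were 14 of the large and 6 of the small subunit.

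RNA rose most for RPL37, RPL9 and RPL5, all of the large subunit. RPL37, a small zinc-binding protein, went from 884, 847 and 778 CPM in the fed to 1169, 1077 and 1127 CPM in the starved libraries. The groups did not overlap, and the increase was 1.45-fold (log2 fold change 0.54, SE 0.08, adjusted p = 4.35e-09). RPL9 RNA was 1168, 1138 and 1032 CPM in the fed and 1374, 1457 and 1330 CPM in the starved libraries, 1.35-fold higher without overlap (log2 fold change 0.43, SE 0.08, adjusted p = 1.43e-06). RPL5, which carries 5S rRNA into the large subunit and can bind MDM2 when outside the ribosome, had 920, 961 and 893 CPM in the fed and 1070, 1175 and 1032 CPM in the starved libraries. That was 1.28-fold higher without overlap (log2 fold change 0.35, SE 0.07, adjusted p = 3.25e-05). The other members called higher were RPL24, RPL27, RPL38, RPLP1, RPS3A and RPS12, with log2 fold changes from 0.22 for RPS3A to 0.35 for RPL38.

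Footprints on most members increased in low arginine relative to those on other transcripts. They rose on 29 of 41 members and fell on 3, RPL4, RPLP1 and RPLP2, by edgeR's quasi-likelihood test, while 9 did not pass. Over all 13457 transcripts tested, 18.9% were called higher and 20.9% lower (39.8% in all), and in the fifth with the most RNA 23.9% and 27.6% (51.5% in all). The median log2 fold change of the members was 0.44, a 1.36-fold increase, against 0.05 over all transcripts and −0.04 in the fifth. All 13 small-subunit members were called higher, with log2 fold changes of up to 1.39, for RPS12, and a median of 0.73. Of the 28 large-subunit members 16 were called higher and 3 lower, with a median of 0.40. The 9 that did not pass, RPL3, RPL6, RPL10A, RPL15, RPL18, RPL19, RPL22, RPL23A and RPL29, were all of the large subunit, and all 9 had less RNA. Leaving out single footprint libraries gave 22 to 28 members higher and 2 or 3 lower. Over all transcripts the same fits called 1842 to 2331 higher and 2315 to 2738 lower. The difference between the subunits was not tested.

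RPS12, a protein of the beak of the small subunit, gained most. Footprints on RPS12 numbered 464, 440 and 371 CPM in the fed and 1329, 1051 and 1094 CPM in the starved libraries. Each starved library exceeded every fed one, and the increase was 2.63-fold (log2 fold change 1.39, SE 0.13, adjusted p = 5.70e-06). Its RNA, at 1301, 1322 and 1037 CPM in the fed and 1506, 1511 and 1275 CPM in the starved libraries, overlapped between the groups and was 1.27-fold higher (log2 fold change 0.34, SE 0.08, adjusted p = 0.000223).

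RPL37A, a zinc-binding protein of the large subunit, came next. Its footprints were 859, 848 and 865 CPM in the fed and 2194, 2011 and 1964 CPM in the starved libraries, 2.32-fold higher with no overlap (log2 fold change 1.21, SE 0.10, adjusted p = 2.64e-06). RNA of RPL37A overlapped, at 797, 739 and 638 CPM in the fed and 774, 769 and 684 CPM in the starved libraries, and did not pass the test (log2 fold change 0.15, SE 0.08, adjusted p = 0.0826); it passed without fed RNA replicate 1, at 0.22 with adjusted p = 0.0119. In footprints the starved libraries of RPL37A were all above the fed, and in RNA the groups interleaved.

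RPL37 and RPL9, which had the highest RNA increases of the members, also had large footprint increases. RPL37 had 696, 710 and 618 CPM in the fed and 1719, 1527 and 1593 CPM in the starved footprint libraries, 2.31-fold higher (log2 fold change 1.21, SE 0.11, adjusted p = 4.40e-06). RPL9 had 933, 942 and 845 CPM in the fed and 2110, 2048 and 2088 CPM in the starved libraries, 2.22-fold higher (log2 fold change 1.15, SE 0.10, adjusted p = 3.78e-06). Neither overlapped between the groups. These 4 members, RPS12, RPL37A, RPL37 and RPL9, were the only ones past 2-fold in footprints. Footprints on RPL5 rose less, from 1064, 1029 and 912 CPM to 1519, 1362 and 1316 CPM, 1.35-fold (log2 fold change 0.43, SE 0.11, adjusted p = 0.00698), a call that was lost without fed replicate 3 (adjusted p = 0.0555).

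The acidic stalk proteins went the other way. RPLP1 and RPLP2 form the flexible arm of the large subunit that recruits elongation factors. Footprints on RPLP1 were 911, 833 and 848 CPM in the fed and 724, 577 and 585 CPM in the starved libraries. All starved libraries were below all fed ones, 1.42-fold lower (log2 fold change −0.51, SE 0.12, adjusted p = 0.00423).

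RNA of RPLP1 overlapped between the groups, at 1719, 1661 and 1421 CPM in the fed and 1901, 1704 and 1699 CPM in the starved libraries. With TMM factors it was called 1.20-fold higher (log2 fold change 0.26, SE 0.08, adjusted p = 0.00458). With library totals alone it was 0.14 (adjusted p = 0.129), and with the abundance trend removed 0.16 (adjusted p = 0.0815). The fall of RPLP1 footprints passed in all 12 alternative fits, with adjusted p from 0.000252 to 0.0454.

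Footprints on RPLP2 were 1049, 1019 and 1020 CPM in the fed and 899, 723 and 831 CPM in the starved libraries, 1.30-fold lower with no overlap (log2 fold change −0.38, SE 0.11, adjusted p = 0.0139). This call was lost with the abundance trend removed (−0.22, adjusted p = 0.156) and without starved footprint replicate 2 (−0.31, adjusted p = 0.0526). RPLP2 RNA overlapped, at 1169, 1186 and 985 CPM in the fed and 1159, 1099 and 1015 CPM in the starved libraries, and did not pass the test (log2 fold change 0.08, SE 0.08, adjusted p = 0.348). RPL12, which sits at the base of the stalk, had more footprints (log2 fold change 0.38, SE 0.11, adjusted p = 0.0163), unlike RPLP1 and RPLP2 in direction.

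RPL4 was the third member with fewer footprints. They went from 1349, 1240 and 1234 CPM in the fed to 850, 1067 and 1117 CPM in the starved libraries, 1.30-fold lower without overlap (log2 fold change −0.38, SE 0.12, adjusted p = 0.0224). This was a smaller decrease than in its RNA. The call was lost with the abundance trend removed (−0.23, adjusted p = 0.158), with the replicate number as a block (−0.39, adjusted p = 0.0509) and without fed footprint replicate 1 (−0.36, adjusted p = 0.0701). RPL15, with the third-lowest RNA change, had 1460, 1292 and 1355 CPM in the fed and 1158, 1302 and 1221 CPM in the starved footprint libraries. These overlapped and did not pass (log2 fold change −0.21, SE 0.10, adjusted p = 0.126).

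**Figure D2:**
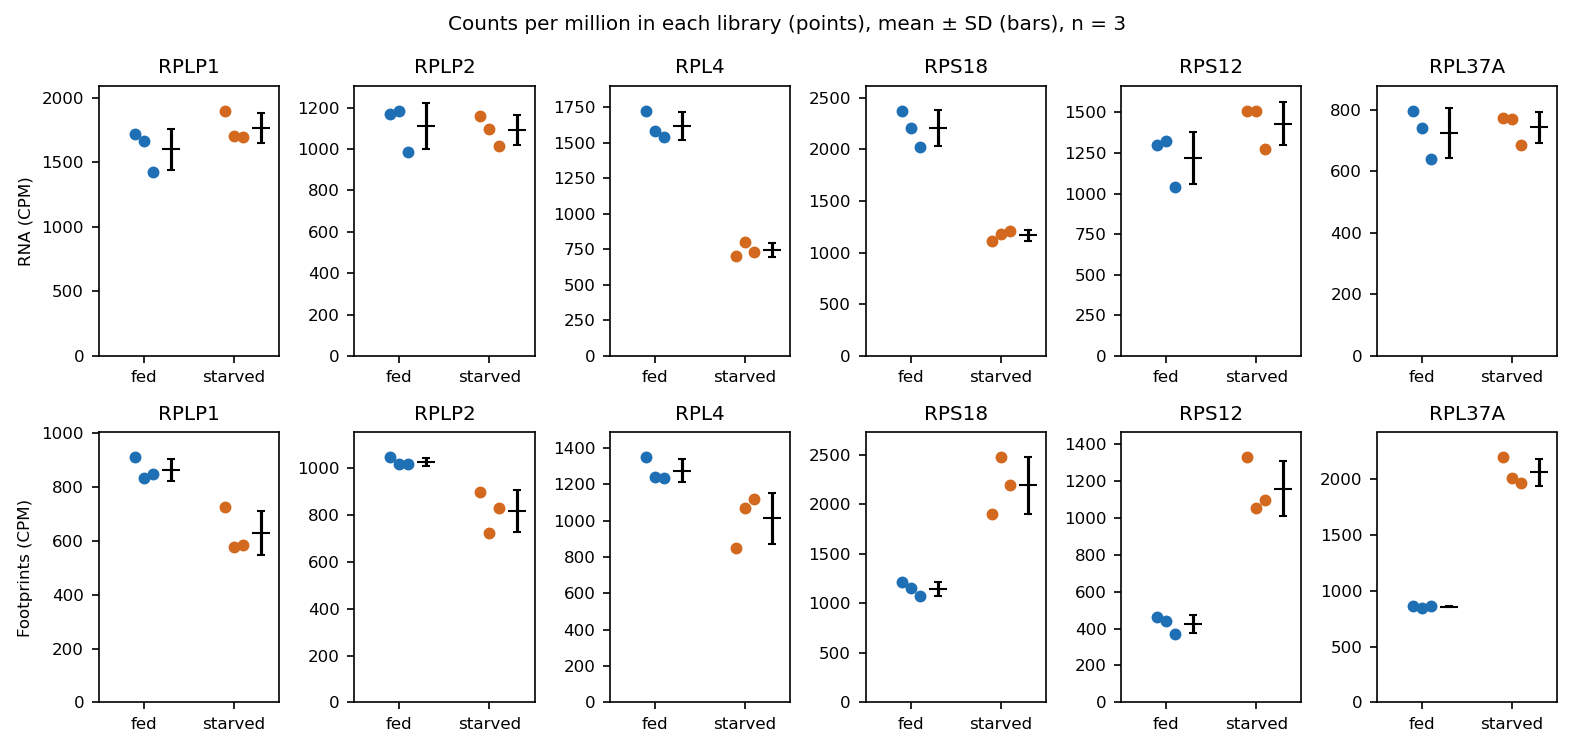
CPM in each library for RPLP1, RPLP2, RPL4, RPS18, RPS12 and RPL37A, RNA in the upper and footprints in the lower row; points are libraries, bars the mean ± SD of 3, and every y axis starts at 0. RPS18 loses RNA and gains footprints, RPLP1 and RPLP2 lose footprints, and RPL37A gains footprints on overlapping RNA levels.

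Low arginine raised the footprints per RNA, called translational efficiency here, for nearly all members relative to other transcripts. Each assay was scaled to its own libraries, so a change in total translation would not show. In a model over all 12 libraries, where efficiency is the interaction of assay and treatment, 36 of 41 members were called higher, 1 lower and 4 did not pass (edgeR's quasi-likelihood test, adjusted p under 0.05). Over all 11027 transcripts tested, 11.1% were called higher and 11.7% lower (22.8% in all), and in the fifth with the most RNA 9.93% and 24.5% (34.5% in all). The members' median log2 fold change of efficiency was 0.76, a 1.69-fold increase, against −0.02 over all transcripts and −0.16 in the fifth. All 13 small-subunit members were called higher, with a median of 0.89, and 23 of 28 large-subunit members, with a median of 0.67. Of the 219 transcripts of the fifth with higher efficiency 36 were members, 16.4% of that list and 87.8% of the members. When its 2205 transcripts were ordered by efficiency change, 26 of the first 100 were members.

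**Figure D3:**
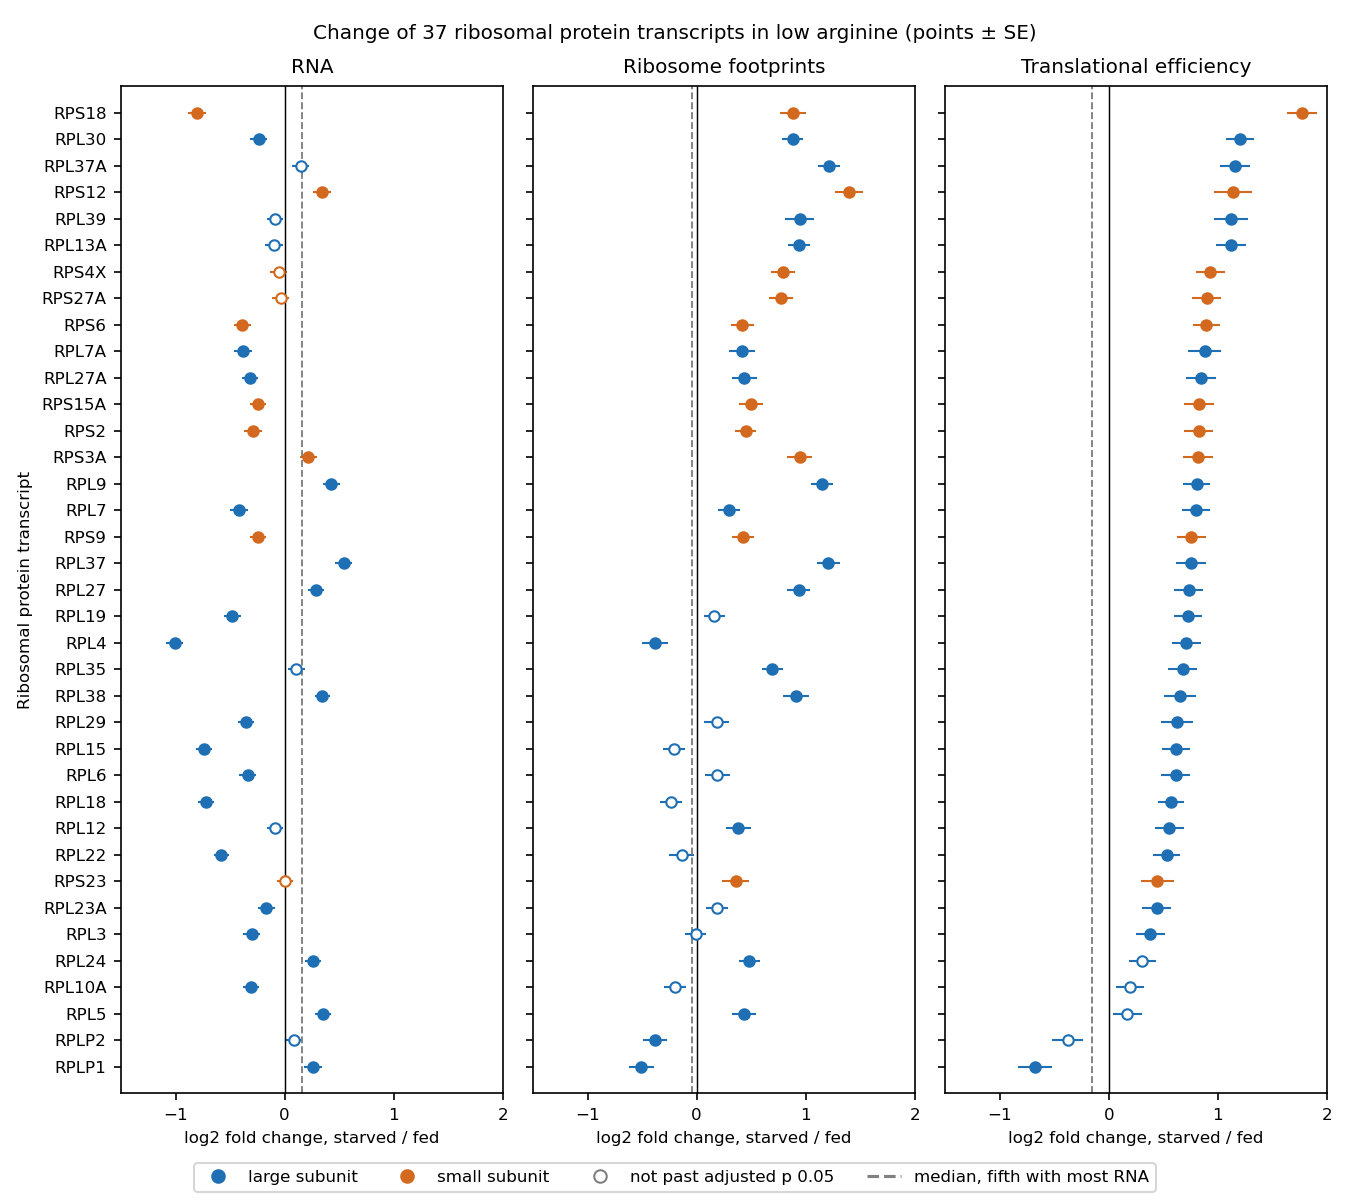
Log2 fold change, starved over fed (x axis), of RNA, footprints and efficiency for 37 of the members, ordered by efficiency; bars are SE, filled points passed an adjusted p of 0.05 and the dashed line is the median of the fifth of transcripts with the most RNA. Efficiency is above 0 for 35 of them and below 0 for RPLP1 and RPLP2, while RNA lies on both sides of 0.

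The first in that order was RPS18. Against the lower RNA given above, its footprints were 1212, 1160 and 1075 CPM in the fed and 1908, 2479 and 2192 CPM in the starved libraries. No starved library was as low as a fed one, and the increase was 1.85-fold (log2 fold change 0.88, SE 0.12, adjusted p = 0.000102). The efficiency of RPS18 rose 3.42-fold (log2 fold change 1.77, SE 0.14, adjusted p = 1.77e-07).

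RPL30, a large-subunit protein, had 1440, 1289 and 1185 CPM of RNA in the fed and 1027, 1022 and 1022 CPM in the starved libraries, and 1052, 1096 and 1018 CPM of footprints in the fed and 2071, 1962 and 1999 CPM in the starved libraries. Neither assay overlapped. RPL30 RNA was 1.18-fold lower (log2 fold change −0.24, adjusted p = 0.00562; −0.16 and adjusted p = 0.0531 without fed RNA replicate 1), and its footprints were 1.84-fold higher (log2 fold change 0.88, adjusted p = 2.67e-05). Its efficiency rose 2.31-fold (log2 fold change 1.21, SE 0.13, adjusted p = 3.36e-06). Other members past 2-fold in efficiency included RPL37A (2.23-fold), RPS12 (2.21-fold), and RPL39 and RPL13A (each 2.18-fold).

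RPL39, a very short protein in the wall of the exit tunnel, had 872, 863 and 764 CPM of RNA in the fed and 735, 732 and 707 CPM in the starved libraries. Its RNA did not pass the test (log2 fold change −0.09, SE 0.07, adjusted p = 0.290), although the groups did not overlap on the CPM scale; it passed with library totals alone (−0.20, adjusted p = 0.0162) and with the abundance trend removed (−0.23, adjusted p = 0.00361). Footprints on RPL39 were 514, 668 and 582 CPM in the fed and 1308, 1099 and 1109 CPM in the starved libraries, 1.92-fold higher without overlap (log2 fold change 0.94, SE 0.13, adjusted p = 0.000130). RPS27A is made as a fusion with ubiquitin. Its RNA overlapped, at 1104, 1132 and 962 CPM in the fed and 937, 1005 and 941 CPM in the starved libraries. Its footprints did not overlap, at 1015, 1016 and 840 CPM in the fed and 1704, 1701 and 1676 CPM in the starved libraries. For RPS27A the log2 fold changes were −0.04 in RNA (adjusted p = 0.682; −0.17 and adjusted p = 0.0391 with the abundance trend removed), 0.77 in footprints (adjusted p = 0.000145) and 0.90 in efficiency (SE 0.13, adjusted p = 9.15e-05).

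RPS6, the small-subunit protein that S6 kinase phosphorylates downstream of mTORC1, had less RNA and more footprints. RNA of RPS6 was 1259, 1171 and 1134 CPM in the fed and 798, 928 and 796 CPM in the starved libraries, 1.31-fold lower (log2 fold change −0.39, adjusted p = 8.30e-06). Its footprints were 1228, 1118 and 1067 CPM in the fed and 1481, 1641 and 1601 CPM in the starved libraries, 1.34-fold higher (log2 fold change 0.42, adjusted p = 0.00612; adjusted p = 0.0507 without fed replicate 2). Neither assay overlapped, and efficiency rose 1.86-fold (log2 fold change 0.89, SE 0.13, adjusted p = 4.87e-05).

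RNA called lower together with footprints called higher was found in 10 members, against 1.31% of the 11027 transcripts kept in both assays. They included RPL7, RPL7A, RPL27A, RPL30, RPS2, RPS6, RPS9, RPS15A and RPS18, and efficiency was called higher for all 10.

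RPL7A, of the large subunit, had 2549, 2204 and 2010 CPM of RNA in the fed and 1475, 1776 and 1556 CPM in the starved libraries, and 2709, 2498 and 2313 CPM of footprints in the fed and 2962, 3879 and 3513 CPM in the starved libraries. Without overlap in either assay, RPL7A RNA fell by 0.38 and its footprints rose by 0.41 on the log2 scale (adjusted p = 6.85e-05 and 0.0143). The footprint call of RPL7A was lost without fed replicate 2 (adjusted p = 0.0754), fed replicate 3 (0.0823) or starved replicate 2 (0.0629). RPL27A had 1144, 1068 and 995 CPM of RNA in the fed and 800, 807 and 774 CPM in the starved libraries, and 809, 796 and 731 CPM of footprints in the fed and 1221, 1064 and 991 CPM in the starved libraries. RPL27A RNA fell by 0.32 and its footprints rose by 0.44 on the log2 scale, with no overlap (adjusted p = 0.000154 and 0.00816; 0.0573 for footprints without fed replicate 3).

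Another 11 members had footprints called higher and no call in RNA, a class that held 2.83% of all transcripts, and efficiency was called higher for all 11. They included RPL13A, RPL35 and RPS4X. In 8 members both assays were called higher, against 13.7% of all transcripts, and in 9 RNA was called lower with no call in footprints, against 14.4%. RPL4 had less of both (18.9% of all transcripts). RPLP1 was the single member with more RNA and fewer footprints (1.08%), and RPLP2 the single one with fewer footprints and no RNA call (4.67%). No member had more RNA with no footprint call (19.8% of all transcripts) or no call in either assay (23.3%). The shares given for joint calls were not taken for the fifth with the most RNA. Calls in either direction were more frequent there, at 78.4% against 67.9% in RNA and 51.5% against 39.8% in footprints.

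**Figure D4:**
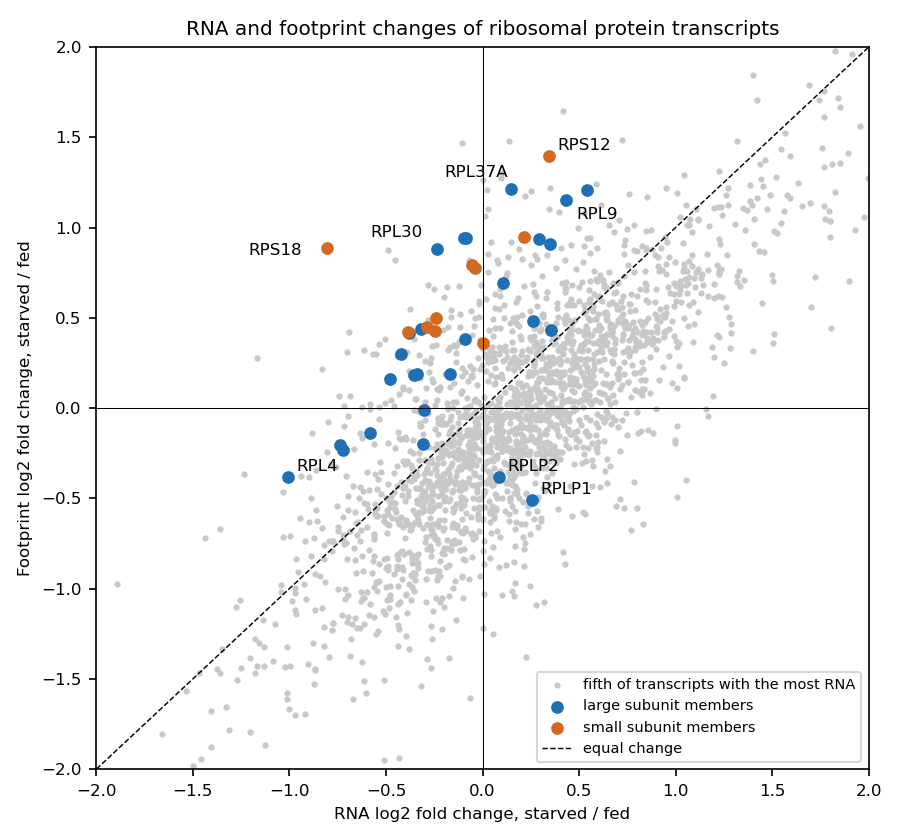
RNA (x axis) against footprint (y axis) log2 fold change, starved over fed, for 37 members and for the 2205 transcripts of the fifth with the most RNA (grey), of which 27 lie outside the axes; the dashed line marks equal change. All members drawn but RPLP1 and RPLP2 lie above the dashed line, and RPS18 lies far above it with lower RNA and more footprints.

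Across the 41 members the RNA and footprint changes were correlated (Pearson's r 0.559, Spearman's rho 0.589), against 0.698 and 0.654 over all 11027 transcripts; members share the same libraries, so this is a description only. For the members with the lowest RNA change the log2 change of efficiency was 0.71 in RPL4, 1.77 in RPS18 and 0.62 in RPL15. For those with the highest it was 0.76 in RPL37, 0.81 in RPL9 and 0.17 in RPL5, which did not pass. The spread of log2 fold changes among members (SD) was 0.36 in RNA, 0.48 in footprints and 0.41 in efficiency, against a median SE of 0.08, 0.11 and 0.13 for a single member.

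The members without an efficiency call were RPL5, RPL10A, RPL24 and RPLP2. RPL5, whose RNA and footprints both rose, had a log2 fold change of efficiency of 0.17 (SE 0.13, adjusted p = 0.385). RPL24 stood at 0.31 (adjusted p = 0.0835) and RPL10A at 0.20 (adjusted p = 0.281). RPLP1 was the member with lower efficiency, 1.60-fold (log2 fold change −0.67, SE 0.15, adjusted p = 0.00382), and it passed in all 18 alternative fits. RPLP2 efficiency was −0.38 (SE 0.14, adjusted p = 0.0660) and passed in 4 of 18 alternative fits, those with DESeq2 size factors, the DESeq2 Wald test, no filter on low counts and without starved footprint replicate 1. In these 18 fits the number of members with higher efficiency ran from 33 to 38.

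The ratio of footprint to RNA CPM within a transcript differed widely among members in both treatments. In fed cells it ran from 0.349 for RPS12 to 2.10 for RPL18, a 6.04-fold range, with a median of 0.967 against 0.878 over all tested transcripts. In starved cells it ran from 0.356 for RPLP1 to 3.30 for RPL18, with a median of 1.78 against 0.919 over all tested transcripts. The number of members with a ratio above 1 went from 20 to 35 of 41. RPL18 was highest in both conditions, while RPS12 and RPLP1 exchanged the lowest place: RPS12 went to 0.809 and RPLP1 came down from 0.540. Which part of a transcript was counted in each assay is not given in the sources used here. Differences in this ratio between members may therefore not be differences in translation.

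**Figure D5:**
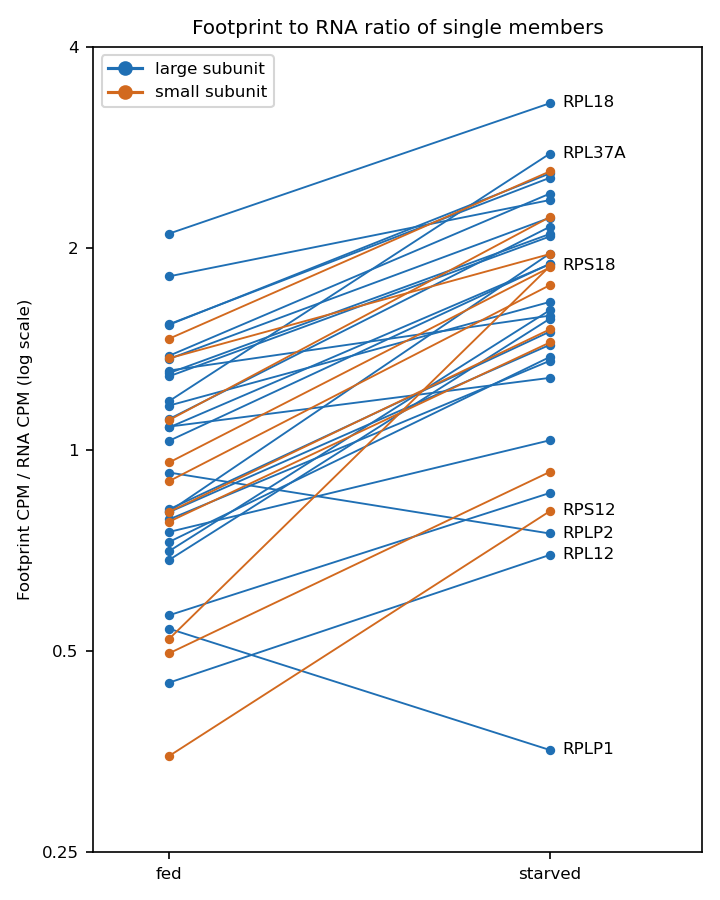
Ratio of mean footprint CPM to mean RNA CPM (log-scaled y axis) of 37 members in fed and starved cells; each line is a transcript. Lines go up for 35 members, and down for RPLP1 (0.540 to 0.356) and RPLP2 (0.924 to 0.749).

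Ribosomal protein genes have many near-identical processed copies in the genome, and how reads shared with them were counted is not given in the sources used here. Ratios and levels of single members are uncertain for that reason in both assays, and the part of such reads in the changes was not tested.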

How the data were processed

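Each assay has 1 table of raw counts by Ensembl transcript, which the authors deposited without normalization (the values are whole numbers and their totals differ). TruSeq preparation is named for RNA and RiboCop depletion of ribosomal RNA for footprints, per the labels' protocols. The tool names cutadapt, STAR, UMI-tools and DESeq2 and the build GRCh38.p13 stand in the submitters' processing notes without roles. Which tool counted, on what annotation and over which part of a transcript is not given in the sources used here. Symbols came with the list of members, since the tables name transcripts only. The members and lists were chosen with earlier results of these data known.

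RNA and footprints were each fitted with treatment as the single term, and efficiency as the interaction across 12 libraries, in edgeR 4.0.16 (R 4.3.3), using TMM factors, filterByExpr and the two-sided quasi-likelihood F test. Benjamini-Hochberg adjustment ran over all transcripts tested. SE is the size of the log2 fold change divided by the square root of F. All 41 members passed the filters. Fold changes compare a transcript with the rest of its assay. The fits were also run on simulated data with a fixed spread in each assay, which cannot show how well the adjusted p-values hold here. Precision is limited by 3 libraries a group, with a biological coefficient of variation of 5.75% for RNA and 13.7% for footprints. Values per library are given for the 3 highest and 3 lowest log2 fold changes of each comparison, up to 6 members with the largest efficiency change among those with opposite calls, and RPS6, RPL5, RPS27A and RPL39 for their known roles. Of the 41 members, 4 are not reported here by name and are left out of the plots of single members, but stay in the counts and medians. Other members given with values were picked after these had been seen. Alternatives were DESeq2 size factors, library totals, removal of an abundance trend (loess), no filter, the Wald test of DESeq2 1.42.0, a replicate block and leaving out each library. Libraries of a group differed by more than sampling noise (chi-square per degree of freedom 2.07 to 7.73), and each was counted once.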

Additional observations from a re-analysis of the deposited data

Results flagged for a closer look

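The same treatment moved RNA and footprints in opposite directions for 10 of the members named here, called in both assays, and the efficiency change passed the test for each of them. Efficiency is fitted on the same counts, so it adds no separate support. Its TMM factors come from the transcripts kept in both assays, so it is close to the difference of those changes without equalling it. Its log2 fold change was 1.77 for RPS18, 1.21 for RPL30, 0.89 for RPS6, 0.88 for RPL7A, 0.85 for RPL27A, 0.83 for RPS15A, 0.83 for RPS2, 0.80 for RPL7 and 0.76 for RPS9, all with less RNA and more footprints. It was −0.67 for RPLP1, with fewer footprints and, under TMM factors, more RNA.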

How the results depend on the processing

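Members called lower outnumbered those called higher in RNA, and the reverse held for footprints and efficiency, under every alternative run. With the abundance trend removed, 5 members had higher RNA, 1 had fewer footprints, and the members' median log2 fold change was −0.23 in RNA, 0.60 in footprints and 0.91 in efficiency; the cause was not tested. With library totals the RNA median was −0.21, and 803 transcripts in all had lower efficiency against 1292. Members with lower efficiency numbered 2, RPLP1 and RPLP2, with DESeq2 size factors, with no filter and with the DESeq2 Wald test. Leaving out 1 library gave 1 or 2 members with lower and 33 to 36 with higher efficiency, against 948 to 1316 and 957 to 1242 of all transcripts. The median fed footprint to RNA ratio then ran from 0.936 to 1.01, and TMM factors gave 1.02. Without the 10 most abundant transcripts, the members' share was 5.03% and 4.26% of RNA in fed and starved libraries and 4.62% and 6.96% of footprints. Within 10 bases of a start, 70.0% of members and 11.4% of all genes had a pyrimidine run of 8 or more. The letters CTTTC or CTTTTC, chosen after the member sequences had been seen, were there in 53.3% and 4.96%. For the members given with full values, 650 of 672 alternative values kept their side of the threshold, and 14 lost and 8 gained a call. None changed direction with a call in the main or the alternative fit. RNA changes without a call in the main fit did change sign among the alternatives. They ran from −0.17 to 0.02 for RPS27A, −0.04 to 0.14 for RPLP2 and −0.001 to 0.22 for RPL37A. The −0.17 of RPS27A (abundance trend removed) and the 0.22 of RPL37A (without fed RNA replicate 1) were called, each with the sign of the main fit. Whether replicate numbers pair the libraries is not in the labels. Deviations of same-numbered libraries from their group means correlated between −0.19 and 0.13 over group pairs, which cannot settle it with so few libraries. With the replicate block, 20 members had lower and 9 higher RNA, 25 more and 2 fewer footprints, and 34 higher and 1 lower efficiency. In these 3 fits the medians of all transcripts were −0.01, 0.05 and −0.03, and those of the members −0.09, 0.43 and 0.75. The planned comparison with arginine content was not run, since no protein sequences were used here.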

Other observations

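RPS2 and RPS9, at the mRNA entry, had log2 fold changes of −0.29 and −0.24 in RNA, both called lower, and of 0.45 and 0.43 in footprints, both called higher. RPS23, which reaches into the decoding centre, had an RNA change of 0.00 that did not pass and a footprint change of 0.36 that was called higher. Its efficiency change of 0.45 was the smallest of the 13 small-subunit members.

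RPL3, near the peptidyl transferase centre, RPL18 and RPL22 had less RNA, with log2 fold changes of −0.30, −0.72 and −0.58, and footprint changes of −0.01, −0.23 and −0.14 that did not pass. Their efficiencies were called higher, at 0.38, 0.57 and 0.53. RPL10A, the movable L1 arm protein, had an RNA change of −0.31, called lower, and values of −0.20 in footprints and 0.20 in efficiency that did not pass.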
